A study of Mus musculus with 8 samples.

Results

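MHC class II antigen presentation was followed at the level of its transcripts in 8 C3H/HeJ mice. The tissue was the Peyer's patch, a cluster of lymphoid follicles in the wall of the small intestine. The members were the probe sets of the array annotated to exactly 1 of 10 genes (H2-Aa, H2-Ab1, H2-Eb1, H2-DMa, H2-Oa, H2-Ob, Cd74, Ciita, Rfxank and Cd86). The rule itself used no measured value, but the genes were chosen with earlier results of these data known. The member probe sets numbered 21 of the 45101 on the array, which name 18194 single genes in all. Of the 21, 18 were brighter than the median probe set and were tested, with at least 1 for each of the 10 genes. Mice of both sexes entered the study at 6 weeks of age and were gavaged daily for 28 days. Ovalbumin (OVA), an egg white protein, was given daily to 2 females (mice 2 and 12) and 4 males (mice 1, 5, 8 and 13), in a dose of 40 mg/kg. Normal saline was given to 1 female (mouse 7) and 1 male (mouse 8), so each sex had a lone control. The labels call the OVA mice allergic, and no measure of allergy was analysed here. All mice, treated or not, lack working Tlr4, which senses bacterial lipopolysaccharide, since this strain carries a mutant allele, and the strain belongs to the H2k haplotype of the MHC.

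MHC class II molecules are pairs of an α and a β chain that carry peptides to the surface of B cells, dendritic cells and macrophages, where CD4+ T cells read them. The invariant chain fills the groove of a new class II molecule and guides it to endosomes, where H2-DM exchanges the remaining invariant chain fragment for antigen peptide and H2-O, made mainly by B cells, restrains H2-DM. In Peyer's patches, antigen taken up from the gut lumen is presented to T cells in and around B cell follicles. Transcription of the class II chains, the invariant chain and H2-DM depends on the coactivator Ciita, which docks on a protein complex at the X and Y boxes of class II promoters.

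Promoter windows of 300 bases, 250 before and 50 after a gene's start, were taken from RefSeq (GRCm38.p6) for 6 of the 10 members. This reference is the C57BL/6J genome, whose H2 haplotype differs from that of C3H/HeJ, so bases may differ in these mice. The windows of 4 genes are shown because they share a layout. They are those of H2-Aa at chr17:34287774-34288073 (minus strand), H2-Eb1 at chr17:34305617-34305916 (plus strand), H2-Oa at chr17:34092129-34092428 (plus strand) and H2-Ob at chr17:34238655-34238954 (plus strand), each written 5′ to 3′ on the gene's strand. Capitals mark GCAAC, a core of the X box, and downstream of it either the Y box core CTGATTGG or, in H2-Ob, its inner ATTGG.
H2-Aa: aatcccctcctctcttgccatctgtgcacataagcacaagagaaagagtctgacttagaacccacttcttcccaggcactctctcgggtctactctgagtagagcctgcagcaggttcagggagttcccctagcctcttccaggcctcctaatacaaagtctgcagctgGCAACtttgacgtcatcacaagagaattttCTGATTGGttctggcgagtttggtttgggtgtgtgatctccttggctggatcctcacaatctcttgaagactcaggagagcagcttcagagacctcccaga
H2-Eb1: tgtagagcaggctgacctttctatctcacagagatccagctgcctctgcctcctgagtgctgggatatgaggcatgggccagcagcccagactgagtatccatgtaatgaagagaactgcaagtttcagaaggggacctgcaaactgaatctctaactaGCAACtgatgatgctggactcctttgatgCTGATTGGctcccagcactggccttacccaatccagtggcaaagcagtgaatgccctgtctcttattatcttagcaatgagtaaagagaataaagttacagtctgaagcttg
H2-Oa: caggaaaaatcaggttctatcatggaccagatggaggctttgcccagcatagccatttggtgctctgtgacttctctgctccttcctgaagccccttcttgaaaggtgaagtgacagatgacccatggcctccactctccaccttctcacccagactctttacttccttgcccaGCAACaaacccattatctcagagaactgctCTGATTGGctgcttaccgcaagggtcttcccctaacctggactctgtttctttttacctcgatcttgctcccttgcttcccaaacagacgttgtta
H2-Ob: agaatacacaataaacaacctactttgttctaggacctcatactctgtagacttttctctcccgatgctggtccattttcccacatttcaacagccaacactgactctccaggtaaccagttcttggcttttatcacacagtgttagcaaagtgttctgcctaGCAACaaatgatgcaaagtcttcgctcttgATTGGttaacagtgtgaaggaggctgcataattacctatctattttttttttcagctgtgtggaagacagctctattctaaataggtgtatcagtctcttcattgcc
In these 4 windows GCAAC began 33, 32, 33 and 30 bases before ATTGG, for H2-Aa, H2-Eb1, H2-Oa and H2-Ob in that order. The pair of letters on the gene's strand, 25 to 45 bases apart, was present in 4 of the 7 member windows (H2-DMa has 2 windows) and in 0.469% of all 32851 windows. GCAAC and this spacing were chosen after the sequences were seen. CTGATTGG, which contains ATTGG, occurred on either strand in 3 of the 7 windows and in 4.1% of all, and ATTGG on either strand in 6 of the 7 and in 37.4% of all. The full X box consensus was found on neither strand of the 7 windows and in 0.0609% of all. Neither the Rfxank window nor those of H2-DMa held the spaced pair. A match is a description of these letters and not of binding.

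The values are the authors' normalized linear intensities, and their trimmed means over the 8 arrays lay between 65.1 and 68.2. The extraction text in the labels speaks of brain cortex from a patient. Of 12 neuron and glia markers 11 were on the array and 4 passed the brightness filter, with Snap25, Gfap, Gad1, Slc17a7, Rbfox3, Nefl and Mog below it, against 17 of 17 B cell markers and 16 of 16 gut epithelium markers. On 2 arrays, female OVA 12 and male OVA 8, the B cell score stood apart from the rest. This score is the mean log2 intensity of 17 B cell genes that include no member, and it was 8.72 and 8.79 on those arrays against 7.69 to 8.20 on the other 6. The summed intensity of these 17 genes was 5292 and 6184 in the controls and 5798 to 12070 in OVA mice, and that of the gut epithelium list 33480 and 33860 in controls and 25850 to 34690 in OVA mice.

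All 10 genes had a higher mean in OVA mice than in controls, by 0.04 to 0.79 on the log2 scale (median 0.24, against 0.02 over all probe sets tested), and none passed the test. On the brightest probe set of each gene, Cd86, a costimulator of T cells on activated presenting cells, differed most. The H2-O chains H2-Oa and H2-Ob followed. With a gene's probe sets averaged, Cd86 was at 0.58, below H2-Oa at 0.61. On their brightest probe sets, the classical chains H2-Aa, H2-Ab1 and H2-Eb1 and the invariant chain Cd74 differed by 0.24 or less. Dimmer H2-Ab1 probe sets gave 0.36 and 0.40. The comparison asked which transcripts of the patches differ after repeated oral OVA, and used limma with sex as a covariate on log2(intensity + 4.88) with Benjamini-Hochberg adjustment over all 22518 probe sets tested. Of these, 0% passed at an adjusted p of 0.05 (smallest adjusted p = 0.21), while 2524 (11.2%) had an unadjusted p under 0.05. The adjusted p of the 10 genes ran from 0.389 to 0.921. With an unadjusted p under 0.05 in the higher direction stood 2 of the 10, Cd86 and Rfxank, on their brightest probe sets only. That made 2 of the 18 member probe sets tested, where 6.88% of all probe sets did so. For 4 of the 10 genes (H2-Eb1, H2-Oa, Rfxank and Cd86) the lowest OVA array exceeded the higher control, as for 8.36% of all probe sets. No member stood below both controls on every OVA array (5.01% of all) or was lower with an unadjusted p under 0.05 (4.33% of all). Of the 18 member probe sets tested 17 were higher in OVA mice, against 54.5% of all.

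**Figure D1:**
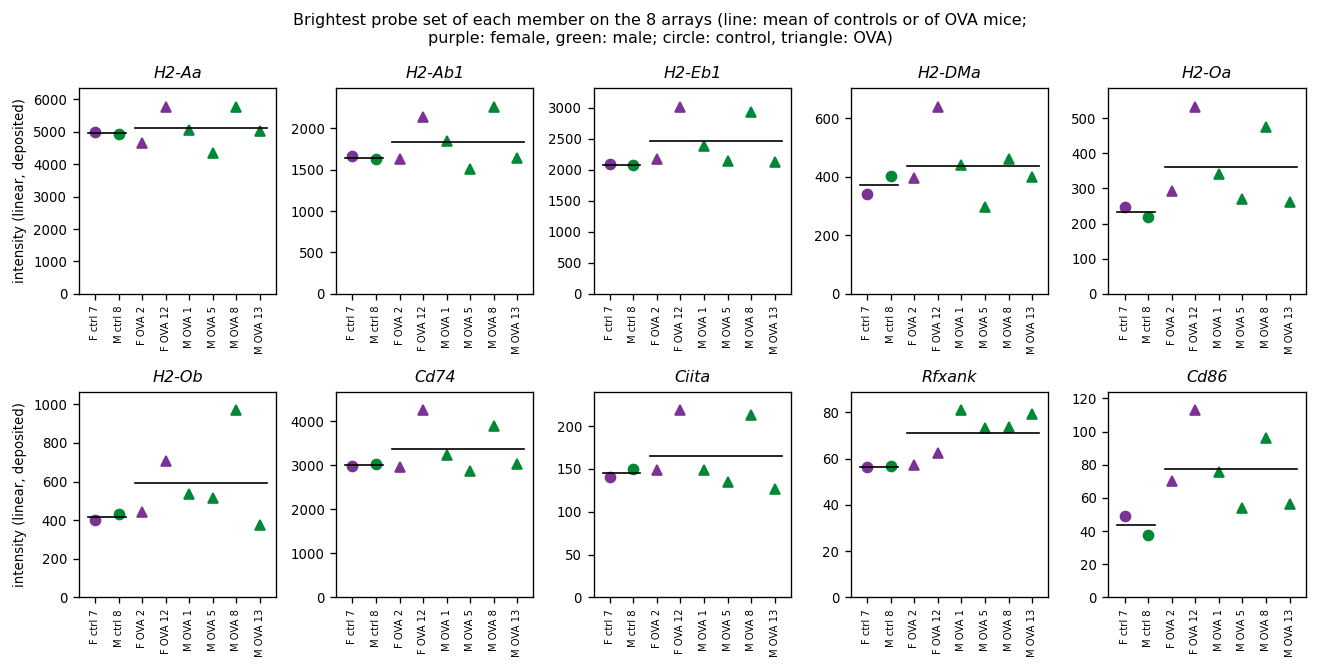
Deposited intensity (linear scale, from 0) of the brightest probe set of each of the 10 genes on each array, with purple for females, green for males, circles for controls, triangles for OVA mice and lines for group means. Female OVA 12 and male OVA 8 are the highest arrays for every gene but Rfxank, and the gap between the lone controls is widest for Cd86 (0.355 on the log2 scale) and H2-DMa (0.23).

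On the brightest probe set of each gene, the classical α and β chains among the members spanned at most 0.58 on the log2 scale over the 8 arrays. A dimmer H2-Ab1 probe set varied more, from 937 to 1702 in OVA mice. So did H2-Ea, a classical α chain outside the members, from 924 to 1768 in OVA mice. H2-Aa, the α chain of the I-A molecule, read 4980 and 4943 in the female and male control, 4665 and 5749 in female OVA 2 and 12, and 5052, 4336, 5765 and 5033 in male OVA 1, 5, 8 and 13. The controls lay inside the range of the OVA mice, and the log2 difference was 0.04 ± 0.13 (SE). H2-Ab1, the β chain of I-A, read 1661 and 1632 in the controls, 1624 and 2142 in OVA females, and 1845, 1505, 2258 and 1644 in OVA males 1, 5, 8 and 13, a difference of 0.15 ± 0.17 (SE). Here too the groups overlapped. H2-Eb1, the β chain of the I-E molecule, read 2089 and 2069 in the controls, 2169 and 3013 in OVA females, and 2383, 2147, 2930 and 2129 in OVA males. Every OVA mouse was above both controls for H2-Eb1, the nearest at 2129, and the difference was 0.24 ± 0.16 (SE, adjusted p = 0.573 with limma).

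Cd74, the invariant chain, averaged 3005 ± 37.2 (SD, n = 2) with saline and 3370 ± 566 (SD, n = 6) with OVA. OVA mice ranged from 2871 to 4243, on either side of the controls at 2979 and 3032. For H2-DMa, the α chain of the peptide exchange factor H2-DM, the controls read 342 and 402 and OVA mice 394 and 639 (females 2 and 12) and 439, 296, 460 and 400.0 (males 1, 5, 8 and 13). H2-DMa was thus highest in female OVA 12 and lowest in male OVA 5, and differed by 0.23 ± 0.23 (SE).

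The chains of H2-O, the B cell inhibitor of H2-DM, spread more widely than the classical chains among the members. H2-Oa, its α chain, read 246 and 219 in the controls, 292 and 532 in OVA females, and 341, 269, 476 and 262 in OVA males 1, 5, 8 and 13. All 6 OVA mice were above both controls, and the difference was 0.61 ± 0.27 (SE, adjusted p = 0.447 with limma). H2-Ob, its β chain, read 403 and 430 in the controls, 440 and 707 in OVA females, and 537, 515, 969 and 375 in OVA males, a difference of 0.42 ± 0.32 (SE). Male OVA 13 was below both controls for H2-Ob, and male OVA 8 was the highest array. From the lowest to the highest array, H2-Oa spanned 1.26 and H2-Ob 1.36 on the log2 scale. On the brightest probe sets the spans were 0.41 for H2-Aa, 0.58 for H2-Ab1, 0.54 for H2-Eb1 and 0.56 for Cd74.

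Among the regulators, Ciita varied with the chains and Rfxank did not. Ciita, the coactivator on which class II transcription depends, read 139.9 and 149 in the controls, 149 and 218 in OVA females, and 149, 135, 213 and 126 in OVA males. The groups overlapped, with a difference of 0.18 ± 0.22 (SE). Rfxank, a subunit of the RFX complex that binds the X box, read 56.2 and 56.9 in the controls, 57.4 and 62.3 in OVA females, and 80.9, 73.3, 73.6 and 79.1 in OVA males. All OVA mice were above both controls, the OVA males by the most, and the difference was 0.26 ± 0.11 (SE, adjusted p = 0.432 with limma). Without the male control the difference rested on females alone, at 0.083, and without the female control on males alone, at 0.40. The lone controls themselves differed by 0.016 on the log2 scale. A dimmer Rfxank probe set went the other way by 0.009, at 19.0 in both controls and 15.2 to 22.9 in OVA mice.

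Cd86, which binds CD28 on T cells, read 49.3 and 37.5 in the female and male control, 70.0 and 113 in female OVA 2 and 12, and 75.7, 53.9, 96.2 and 56.1 in male OVA 1, 5, 8 and 13. Every OVA mouse was above both controls, and the gap between the lone controls was itself 0.355 on the log2 scale. The fitted difference was 0.79 ± 0.24 (SE), a fold of 1.73, with an unadjusted p of 0.0092 and an adjusted p of 0.389 with limma. Without the female control it rested on males alone, at 0.79, and without the male control on females alone, also at 0.79. The second Cd86 probe set gave a smaller difference, 0.36 ± 0.24 (SE), and 4 of the 6 OVA mice were above both controls on it.

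Probe sets of the same gene differed in size elsewhere as well. The 3 tested H2-Ab1 probe sets gave 0.15, 0.36 and 0.40 in falling order of brightness, and the dimmest of them had all OVA mice (184 to 312) above the controls (180.2 in both). For H2-Aa the 3 gave 0.04, 0.12 and 0.09, for H2-DMa 0.23 and 0.17, and for Ciita 0.18 and 0.37. Several carry the suffix _x_at or _s_at, which the array's maker gives to probe sets that can bind more than 1 transcript, and class II chains resemble each other, so signal from a related chain cannot be told apart in them.

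**Figure D2:**
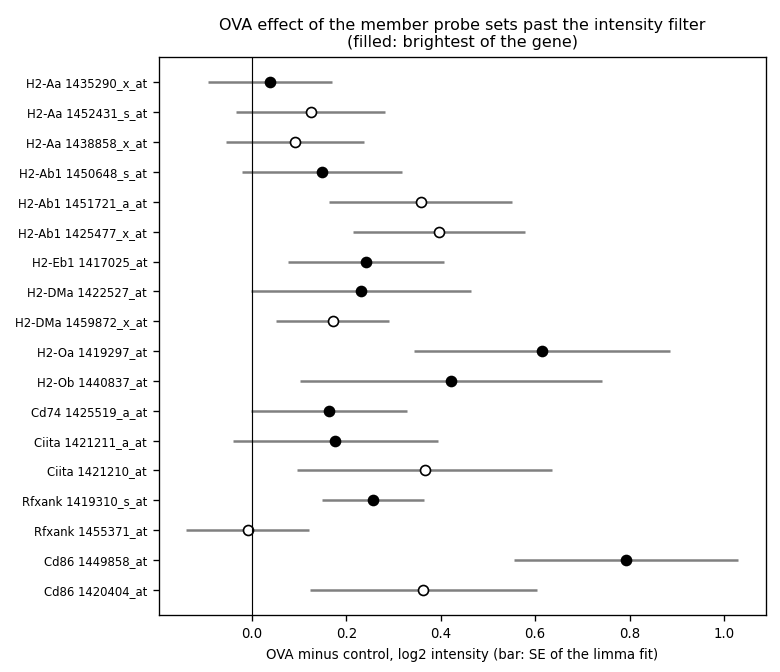
OVA minus control on the log2 scale (x axis) for the 18 member probe sets above the brightness filter (y axis), with bars for the SE of the limma fit and filled points for the brightest probe set of a gene. Cd86 at 0.79 and H2-Oa at 0.61 lie farthest to the right, and 1 probe set, of Rfxank, lies below 0.

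The members other than Rfxank were high on the same arrays as the B cell score. Female OVA 12 and male OVA 8 were the highest pair of arrays for 9 of the 10 genes and for 16 of the 18 probe sets, against 18.9% of all probe sets tested. As deviations from its mean over all arrays, this score stood at -0.33 and -0.45 in saline mice, -0.073 and 0.59 in OVA females, and 0.072, -0.16, 0.66 and -0.32 in OVA males 1, 5, 8 and 13. The mean of H2-Aa, H2-Ab1, H2-Eb1 and Cd74 was also highest on female OVA 12 and male OVA 8 and had a narrower range, at -0.10 and -0.11 in controls, -0.12 and 0.30 in OVA females and 0.020, -0.19, 0.28 and -0.088 in OVA males. The T cell score was also highest on these arrays, at 0.29 and 0.33, as was the dendritic cell score, at 0.16 and 0.24, while the macrophage score was 0.038 and 0.030 and the gut epithelium score -0.25 and -0.32. In whole tissue, more presenting cells and more RNA per cell cannot be told apart. Both controls lay below every OVA mouse on the B cell score, so the score and the treatment are partly confounded. Fits with such scores cannot separate cell makeup from treatment. The part of cell makeup in the difference between OVA mice and controls was not tested.

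**Figure D3:**
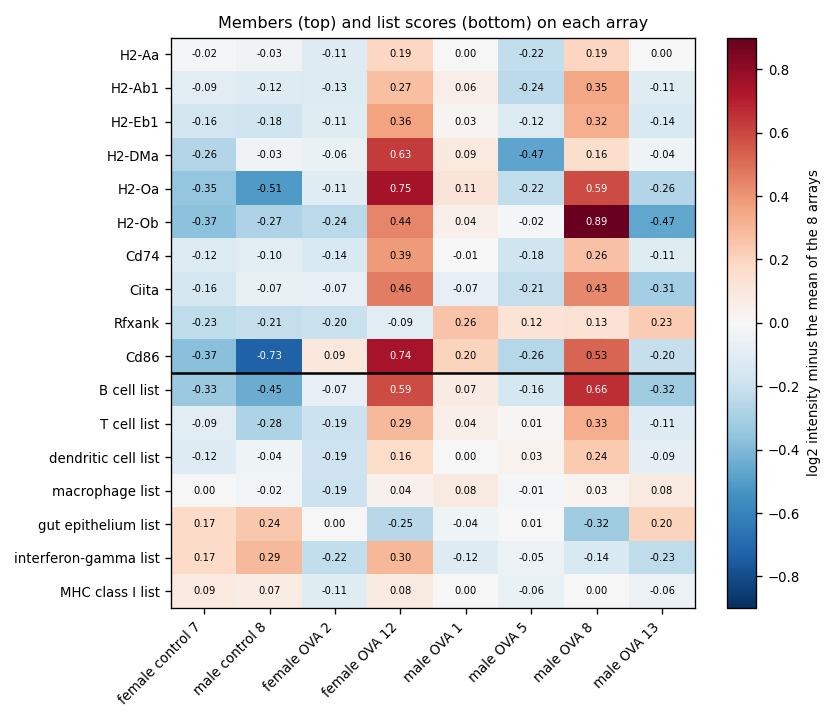
Log2 intensity minus the mean of the 8 arrays, as colour and number, for the 10 genes (rows above the line) and for the mean of 7 gene lists (rows below it), with arrays as columns. The columns of female OVA 12 and male OVA 8 are above 0 for all members except Rfxank in female OVA 12 (-0.093), and for the B cell list (0.59 and 0.66).

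With the B cell score added as a covariate, the OVA difference of 7 of the 10 genes turned from higher to lower, against 32.4% of all probe sets that had been higher. It went from 0.04 to -0.15 ± 0.12 (SE) for H2-Aa, from 0.15 to -0.16 ± 0.11 (SE) for H2-Ab1, from 0.42 to -0.24 ± 0.13 (SE) for H2-Ob and from 0.18 to -0.25 ± 0.11 (SE) for Ciita. H2-Eb1, H2-DMa and Cd74 were the others, at -0.064, -0.094 and -0.13. H2-Oa stayed higher at 0.058 ± 0.12 (SE), Cd86 at 0.32 ± 0.12 (SE) and Rfxank at 0.26 ± 0.13 (SE). None of the 10 passed in this fit, where the smallest adjusted p among them was 0.718, for Cd86. With the gut epithelium score in its place, added after the data were seen, the same 7 genes turned, against 36% of all probe sets that had been higher, and Cd86 was at 0.30 ± 0.17 (SE). Without female OVA 12 and male OVA 8 the difference was 0.57 ± 0.16 (SE) for Cd86 and 0.33 ± 0.14 (SE) for H2-Oa. On those 6 arrays 3 of the 10 genes turned, against 15% of all probe sets that had been higher. The difference was -0.064 for H2-Aa, 0.0011 for H2-Ab1, 0.081 for H2-Eb1, -0.0028 for Cd74 and -0.043 for Ciita.

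**Figure D4:**
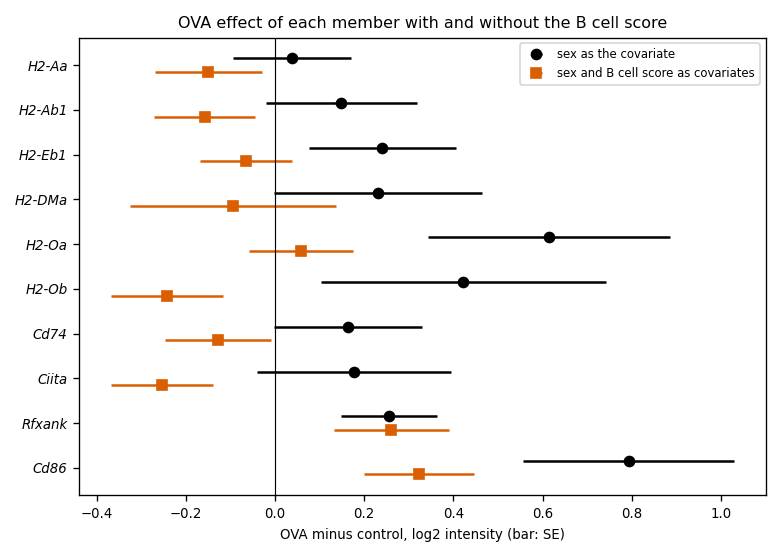
OVA minus control on the log2 scale (x axis) for each gene, from the fit with sex (black circles) and from that with sex and the B cell score (orange squares), with bars for SE. All black circles lie above 0, and with the score added only H2-Oa, Rfxank and Cd86 do.

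The same fit gives the change of each gene per log2 unit of the B cell score at fixed treatment and sex, a test added after the data were seen. Of the 22518 probe sets 7.05% passed at an adjusted p of 0.05, 4.93% rising with the score and 2.12% falling. Of the 10 genes 6 rose with it. H2-Ob changed by 1.22 ± 0.14 (SE, adjusted p = 0.0185 with limma) and H2-Oa by 1.02 ± 0.13 (SE, adjusted p = 0.0185 with limma), both estimates being at or above 1, where a gene changes as much as the score. Cd86 rose by 0.86 ± 0.14 (SE, adjusted p = 0.0215 with limma) and Ciita by 0.79 ± 0.13 (SE, adjusted p = 0.0218 with limma). H2-Ab1 at 0.56 ± 0.12 (SE) and H2-Eb1 at 0.56 ± 0.11 (SE) rose less steeply, with adjusted p of 0.0399 and 0.0335 in limma. Cd74 (0.53 ± 0.13, SE), H2-DMa (0.60 ± 0.25, SE) and H2-Aa (0.34 ± 0.13, SE) did not pass, with adjusted p of 0.0504, 0.182 and 0.148 in limma, nor did Rfxank at -0.0096 ± 0.14 (SE). Differences between these slopes were not tested. The slopes rest on few mice. Without male OVA 8, female OVA 12, male OVA 13 or female OVA 2, taken out one at a time, no probe set of the array passed. Without the first of these the slopes of H2-Ob and H2-Oa were 1.09 and 1.20. Without female OVA 12 and male OVA 8 together they were 1.24 and 1.02, with SEs of 0.50 and 0.43, and again no probe set passed.

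**Figure D5:**
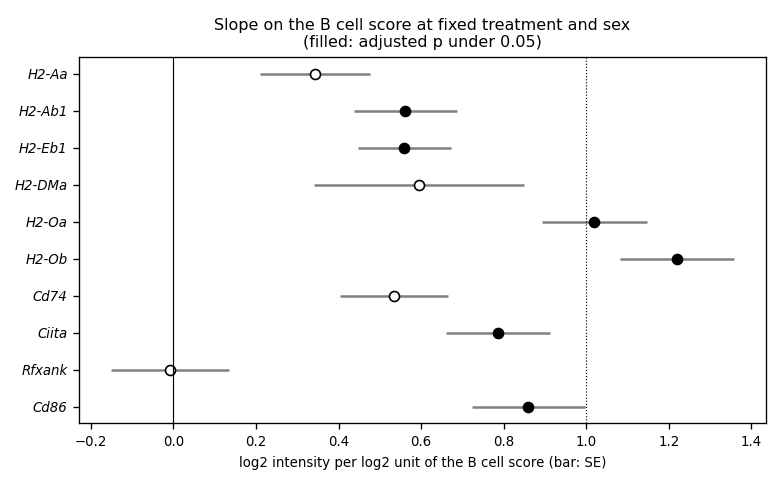
Change in log2 intensity per log2 unit of the B cell score (x axis) for each gene at fixed treatment and sex, with bars for SE, filled points for an adjusted p under 0.05 and a dotted line at 1, where a gene changes as much as the score. H2-Oa (1.02) and H2-Ob (1.22) lie at or beyond 1, the classical chains near 0.34 to 0.56 and Rfxank near 0.

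Between the sexes, 8 of the 10 genes had a lower fitted level in males, by 0.04 to 0.35 on the log2 scale, and none passed the limma test (adjusted p = 0.901 to 0.991). Over the array 0.0533% of probe sets passed, 54.7% were higher in males at any size, and 5.41% had an unadjusted p under 0.05 (3.97% higher in males and 1.44% lower). Of the members only Rfxank had one under 0.05, at 0.25 ± 0.10 (SE) higher in males. Females averaged 58.7 and males 72.8 for Rfxank, and the male control, at 56.9, lay with the females. Cd86 was the gene furthest on the female side, at -0.35 ± 0.21 (SE). Without female OVA 12 the male minus female difference of H2-Aa, H2-Ab1, H2-Eb1, H2-DMa, H2-Oa, Cd74 and Ciita turned to the male side, at 0.037 to 0.089. Whether the OVA effect differed by sex was tested with limma, and 0% of probe sets and no member passed. Unadjusted p under 0.05 was found for 8.2% of probe sets (2.72% with the higher OVA effect in males and 5.48% with the lower) and for no member. The OVA effect was higher in males for 43.6% of probe sets and for 2 of the 10 members, Rfxank and Cd86. The fitted values furthest from 0 were those of H2-DMa, at -0.58 ± 0.46 (SE), Ciita, at -0.33 ± 0.45 (SE), and Rfxank, at 0.32 ± 0.19 (SE), with adjusted p of 0.793, 0.898 and 0.711.

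The remaining genes of the pathway are described from lists chosen with earlier results of these data known. None of their genes passed the limma test. Their counts stand against the shares of all probe sets tested, of which 54.5% were higher in OVA mice at any size. Every OVA array was above both controls for 8.36% of them and below both for 5.01%. Ctss, Nfya, Nfyc, H2-K1 and H2-D1 are named beyond the rule of smallest p and were chosen after their values were seen. The other class II chains were H2-DMb2, a β chain of H2-DM, at 0.58 ± 0.27 (SE), H2-Eb2 at 0.37 ± 0.24 (SE) and H2-Ea, the α chain of I-E, at 0.28 ± 0.26 (SE). H2-Ea, which C57BL/6 mice do not express, read 975 on average in controls and 1220 in OVA mice of this strain. Of 11 genes of endosomal processing 9 were higher (median 0.14). Cst7, a cystatin that inhibits cathepsins, was at 0.43 ± 0.15 (SE) and the protease Ctsh at 0.37 ± 0.15 (SE). These were the only 2 of the 11 with all OVA mice above both controls. Ctsb was at -0.16 ± 0.09 (SE), and Ctss, the protease that trims the invariant chain in B cells and dendritic cells, at 0.06 ± 0.11 (SE). Among 15 genes of class II transcription and turnover 12 were higher (median 0.12). Nfyb, a subunit of the factor that binds the Y box, was at 0.37 ± 0.11 (SE), and at 0.22 with its probe sets averaged. The other subunits did not share this, with Nfya at 0.03 ± 0.20 (SE) and Nfyc at -0.12 ± 0.09 (SE). Marchf1, a ubiquitin ligase that removes class II and Cd86 from the cell surface, was at 0.70 ± 0.27 (SE). All 6 OVA mice were above both controls for 2 of the 15 genes, Nfyb and Marchf1. They were below both for 2, Nfyc and Irf1, an interferon-inducible transcription factor, at -0.46 ± 0.15 (SE).

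Of the costimulators and their receptors 11 of 14 passed the brightness filter and 9 of these were higher (median 0.27). Icos, a T cell costimulatory receptor, was at 0.55 ± 0.20 (SE), Cd40, the receptor for T cell help on B cells, at 0.46 ± 0.22 (SE) and the ligand Tnfsf9 at 0.27 ± 0.15 (SE). Cd80, the other ligand of CD28, was too dim to test, as were Tnfsf4 and Cd40lg. MHC class I presentation lay on the other side, with 13 of 15 genes lower (median -0.11). Tap1, a chain of the peptide transporter, was at -0.33 ± 0.13 (SE), the proteasome subunit Psmb10 at -0.20 ± 0.13 (SE) and the chaperone Canx at -0.17 ± 0.11 (SE), while the class I chains H2-K1 and H2-D1 were at -0.01 and 0.05. Interferon-gamma response genes, of which Irf1, Tap1, Psmb9 and Nlrc5 are also counted in the lists above, were lower in 12 of 13 (median -0.33), including the GTPases Irgm2 (-0.62) and Iigp1 (-0.69) and Igtp (-0.62). Their mean score was 0.17 and 0.29 in the controls and 0.30 in female OVA 12, against -0.23 to -0.054 in the other 5 OVA mice.

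Among lists of presenting cells, B cell genes were higher in 17 of 17 (median 0.58), with Vpreb3, Fcrla and Tnfrsf13c of smallest p. Dendritic cell genes were higher in 7 of 12 (median 0.04), with Fscn1, an actin bundler of mature dendritic cells, at 0.72 ± 0.33 (SE), Ccr7, which guides them to T cells, at 0.53 ± 0.31 (SE) and the integrin Itgax at -0.24 ± 0.13 (SE). Macrophage genes were higher in 6 of 12 (median 0.02), with Fcgr1 at -0.32 ± 0.15 (SE), Cd68 at 0.37 ± 0.22 (SE) and Lyz2 at 0.23 ± 0.15 (SE). All 9 tested T cell genes were higher (median 0.25), with Cd247 at 0.45 ± 0.18 (SE), Cd5 at 0.51 ± 0.21 (SE) and Cd3d at 0.31 ± 0.21 (SE). Gut epithelium genes were lower in 16 of 16 (median -0.25), with Elf3 (-0.55), Cdx1 (-0.47) and Cdx2 (-0.40) of smallest p. Of the summed intensities, those of the dendritic cell list were 1446 and 1476 in controls and 1382 to 2333 in OVA mice, and those of the macrophage list 6627 and 7239 and 6758 to 8661. Zbtb46 of the dendritic cell list and Cd163 of the macrophage list were below the brightness filter.

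The genes whose pattern over the 8 arrays was most like the mean of H2-Aa, H2-Ab1, H2-Eb1 and Cd74, among 11978 others, were Cdk4 (Pearson r = 0.994), Thy1 (0.99), Akap13 (0.986), Septin1 (0.985) and Sh3bgrl3 (0.984). Those most like Cd86 were Fkbp3 (0.993), Vpreb3 (0.993), Utp3 (0.992), Prmt1 (0.991) and Psmc3ip (0.99). All 10 were highest on female OVA 12 and male OVA 8, which set much of these correlations, and the arrays share their scaling. Vpreb3, of the surrogate light chain family of B cells, read 142 and 103 in the controls, 197 and 330 in OVA females and 246, 158, 284 and 157 in OVA males. Thy1, a surface marker of T cells, read 59.8 in both controls, 60.7 and 92.9 in OVA females and 72.6, 58.9, 93.3 and 64.1 in OVA males.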

How the data were processed

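Total RNA of Peyer's patches was hybridised in 1 colour, with 1 array of 45101 probe sets per mouse. The deposited values are probe set intensities normalized by the authors. MAS5 is named in the submitters' processing notes without a version or scaling target. A pseudocount of 4.88, the lower quartile of all values, preceded the log2 step. After removal of 64 control probe sets, the 22518 brighter on average than the median probe set (intensity 11.9) were tested. By the array annotation 34958 probe sets have 1 gene, 932 have several and 9211 have none. A gene was represented by its brightest tested probe set. The members and gene lists were chosen with earlier results of these data known. Named genes were all members, the 3 of smallest p in each list and the 5 most alike by Pearson r. Group differences came from two-sided moderated tests on all 8 arrays (limma 3.58.1, with lmFit and eBayes, under R 4.3.3), with treatment and sex as terms (5 residual degrees of freedom), and the sex difference in the OVA effect from 4 group means (4 degrees of freedom). That step assumes for a lone control the spread of the remaining arrays. No set test was run. The fits were run on simulated data with independent noise on each array, as a check of the estimates only. Patterns shared by arrays were not simulated. Precision is limited by the number of arrays. Alternatives were the pseudocount, normalization, filter, variance model, array weights, covariates, averaging a gene's probe sets, and each array left out. Python 3.11.15, NumPy 2.4.6, pandas 2.3.3 and matplotlib 3.10.9 were used for sequences and figures.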

Additional observations from a re-analysis of the deposited data

How the results depend on the processing

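No paired analysis was possible because each mouse had 1 treatment and gave 1 array. The labels state no link between male control 8 and male OVA 8. No probe set passed for OVA against control or for the difference between the sexes under any alternative run, and no member passed for these or for sex. The count for sex was 12, and 4 with a filter at the 75th percentile (9 to 13 with an array left out). The slope count was 1587. It was 3861 without terms for sex and treatment, 0 without female OVA 12 and male OVA 8 together, and 0 to 2392 with an array left out. The other planned settings kept the counts for OVA, for sex and for the sex difference in the OVA effect within 1.5 times. The settings for the slope were not planned. Of 17, 7 kept its count within 1.5 times, 3 raised it further and 7 lowered it further. Quantile normalization moved the share of probe sets higher in OVA mice from 54.5% to 50.2% and that higher in males from 54.7% to 47.4%. Of 230 alternatives for the members' OVA effects 21 turned the sign, and of 190 for sex 14. Of 150 for the sex difference in the OVA effect 19 turned it, and of 170 for the slope 6. The cause was not tested.

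OVA effects that turned were, with the B cell score, H2-Aa -0.15, H2-Ab1 -0.16, H2-Eb1 -0.064, H2-DMa -0.094, H2-Ob -0.24, Cd74 -0.13, Ciita -0.25, H2-Eb2 -0.073, H2-Ea -0.23, Ccr7 -0.062 and Cd3d -0.083. With the epithelium score they were H2-Aa -0.14, H2-Ab1 -0.17, H2-Eb1 -0.080, H2-DMa -0.051, H2-Ob -0.34, Cd74 -0.13, Ciita -0.29, H2-DMb2 -0.035, H2-Eb2 -0.085, H2-Ea -0.25, Ccr7 -0.13, Lyz2 -0.010 and Cd3d -0.11. Without female OVA 12 and male OVA 8 they were H2-Aa -0.064, Cd74 -0.0028 and Ciita -0.043, where the Rfxank slope was 0.19 (0.12 without terms for sex and treatment). Within males H2-DMa was at -0.032, and with array weights H2-Aa at -0.018. Sex effects turned to 0.017 for H2-Aa and 0.026 for H2-Ab1 with array weights, and to -0.0035 for H2-Ob with quantile normalization. The sex difference in the OVA effect turned to 0.020 for H2-Aa and 0.022 for H2-Ab1 with median centring. For Cd86 it was -0.0094 with array weights, -0.016 with the larger pseudocount and -0.087 with the mean of its probe sets.

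With 1 array left out, the OVA effect ranged from -0.022 to 0.094 for H2-Aa, 0.070 to 0.22 for H2-Ab1, 0.14 to 0.33 for H2-Eb1, -0.032 to 0.55 for H2-DMa, 0.44 to 0.77 for H2-Oa, 0.29 to 0.55 for H2-Ob, 0.052 to 0.25 for Cd74, 0.027 to 0.36 for Ciita, 0.083 to 0.40 for Rfxank and 0.67 to 0.92 for Cd86. The lowest value came without female OVA 12 and the highest without female OVA 2, except that for H2-DMa, Ciita and Rfxank both came without a control. Without the lone control of a sex, the OVA effect rests on mice of the other sex. The sex effect ranged from -0.12 to 0.061 for H2-Aa, -0.17 to 0.077 for H2-Ab1, -0.22 to 0.076 for H2-Eb1, -0.35 to 0.086 for H2-DMa, -0.49 to 0.037 for H2-Oa, -0.16 to 0.25 for H2-Ob, -0.23 to 0.089 for Cd74 and -0.28 to 0.055 for Ciita. The sex difference in the OVA effect ranged from -0.18 to 0.12 for H2-Aa, -0.23 to 0.17 for H2-Ab1, -0.33 to 0.15 for H2-Eb1, -0.53 to 0.33 for H2-Oa, -0.42 to 0.26 for H2-Ob, -0.42 to 0.10 for Cd74 and -0.32 to 0.33 for Cd86. The Rfxank slope ranged from -0.11 to 0.049. Without either control the sex difference in the OVA effect has no estimate.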

Other observations

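The 3 member probe sets below the brightness filter were read on every array and entered no test. That of H2-Aa read 4.68 and 5.11 in the controls and 5.07 to 8.97 in OVA mice. The third Ciita probe set read 6.32 and 12.1 in the controls and 8.95 to 13.0 in OVA mice, and the third of Rfxank 5.97 and 7.36 against 6.16 to 10.3. Beta-actin probe sets, which track RNA integrity, gave 3′ over 5′ ratios of 1.32 in female OVA 12 and 1.58 in male OVA 8, the arrays highest for most members, 1.43 and 1.54 in the controls and 1.29 to 1.37 in the other OVA mice. Its part in the results was not tested.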
